A study of Arabidopsis thaliana with 18 samples.

Results

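miR159 and miR319 are a pair of related plant miRNA families, and their levels were followed here in small RNA libraries of *Arabidopsis thaliana*. The members were all entries of the deposited miRNA table that belong by name to the family miR159 or miR319. There were 6 of them among 161 entries, namely 4 of miR159 (miR159a, miR159b-3p, miR159b-5p and miR159c) and 2 of miR319 (miR319a and miR319b, which share a mature sequence and a single entry written here as miR319a/b, and miR319c). The 18 libraries came from whole seedlings, 4 d old, grown in continuous red light at 21 °C and moved to 27 °C or left at 21 °C for the last part of growth, with 3 libraries for each genotype and temperature. *hyl1-2* lacks HYL1, a protein that binds double-stranded RNA and assists the miRNA-processing enzyme DCL1. *dcl1-24/hyl1-2* carries the same *hyl1-2* mutation and, in addition, *dcl1-24*, a proline-to-serine substitution in an RNase III domain of DCL1 that came out of a chemical mutagenesis screen for suppressors of *hyl1-2*. Col-0 is the wild type. The study calls the 3 libraries of a group independent biological replicates, and the p-values measure the spread between these libraries.

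In plants, DCL1 cuts a miRNA duplex out of the stem of a folded precursor, helped by HYL1 and SERRATE. One strand, the guide, is kept by ARGONAUTE1 and directs the cleavage of mRNAs with a nearly complementary site, whereas the other strand, the passenger, is mostly lost. miR159 is known for holding down GAMYB-like MYB genes such as *MYB33* and *MYB65* in vegetative tissue. miR319 is known for holding down a class of TCP genes, among them *TCP4*, that limit cell division in growing leaves. The families share most of their mature sequence, and their precursors are unusual among plant miRNAs in having a long stem that is cut from the loop side towards the base.

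The mature sequences are shown because the paralogues differ by so few bases that the sequence sets how well a read can be assigned to one of them. Capitals mark the seed, bases 2 to 8 from the 5′ end. All come from the RefSeq annotation of TAIR10.1.
miR159a: uUUGGAUUgaagggagcucua
miR159b-3p: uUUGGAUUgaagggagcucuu
miR159c: uUUGGAUUgaagggagcuccu
miR319a and miR319b: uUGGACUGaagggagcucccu
miR319c: uUGGACUGaagggagcuccuu
miR159b-5p: gAGCUCCUugaaguucaaugg
The 3 guides of miR159 had the seed UUGGAUU and the 3 names of miR319 the seed UGGACUG. Counted from the 5′ end of the first-named miRNA, miR159a differed from miR159b-3p by A21U alone, from miR159c by U20C and A21U, and miR319a from miR319c by C20U. When miR319c was shifted by 1 base against miR159c, 19 of 20 bases were identical and the remaining difference was U7C. Reads were aligned without mismatches, so a full-length read belongs to a single entry. A read that lacks the last base matches miR159a and miR159b-3p alike, and the split of such reads between these entries is uncertain.

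The guides lie at chr1:27713234-27713254 on the minus strand (miR159a, *AT1G73687*), chr1:6220813-6220833 on the plus strand (miR159b-3p, *AT1G18075*), chr2:18994826-18994846 on the plus strand (miR159c, *AT2G46255*) and chr2:17029870-17029890 on the plus strand (miR319c, *AT2G40805*). The shared miR319a/b sequence is found at chr4:12353109-12353129 on the plus strand (*AT4G23713*) and at chr5:16660469-16660489 on the minus strand (*AT5G41663*). Each is annotated as part of the hairpin of a miRNA gene. The hairpins of the families were 172 to 225 nt long, against a median of 144.5 nt for the 326 annotated hairpins (range 59 to 689 nt). In all 6 the guide was on the 3′ arm, and at least 131 nt separated the arms in the minimum-energy fold. The hairpin of *MIR159b* (chr1:6220646-6220841, plus strand) is printed because both of its strands are entries of the table. Its capitals mark miR159b-5p near the 5′ end and miR159b-3p near the 3′ end.
MIR159b hairpin: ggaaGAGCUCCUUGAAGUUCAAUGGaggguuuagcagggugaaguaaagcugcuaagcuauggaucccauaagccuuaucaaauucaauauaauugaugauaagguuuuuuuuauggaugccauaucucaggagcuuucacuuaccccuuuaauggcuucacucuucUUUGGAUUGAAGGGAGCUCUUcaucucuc
A target site of each family is shown to set its pairing beside both families. Capitals mark bases that form Watson-Crick pairs with miR159a in the *MYB33* site (chr5:1839579-1839599) and with miR319a in the *TCP4* site (chr3:5063300-5063320), both in coding sequence on the plus strand.
MYB33 site: UgGAGCUCCCUUCAuUCCAAu
TCP4 site: gaGGgGucCCCUUCAGUCCAg
The *MYB33* site had 2 mismatches and 1 G:U pair with miR159a, 3 and 1 with miR159b-3p and 3 and 0 with miR319a, and *MYB65* held the same 21 bases at chr3:3604151-3604171. The *TCP4* site had 2 mismatches and 4 G:U pairs with miR319a, 1 mismatch and 4 G:U pairs with miR319c, and the same 2 and 4 with miR159c as with miR319a. The mRNAs of these targets, of *HYL1* and of *DCL1* were not measured in these libraries.

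Levels are in RPMR, the reads of a miRNA that the authors divided by the 45S rRNA reads found in the same library. From the step between the lowest values, the miRNA reads numbered 61810 to 147642 in *dcl1-24/hyl1-2*, 11040 to 77936 in *hyl1-2* and 68857 to 173156 in Col-0, with 1 read worth 0.24 to 0.896 RPMR. Because the scale is rRNA, a lower level of most miRNAs and a higher level of rRNA fragments cannot be told apart, nor can fewer cells of a type and less miRNA per cell. The median log2 fold change of the 139 entries tested, those averaging 1 RPMR or more, all 6 members included, was -1.63 at 27 °C and -1.95 at 21 °C in *hyl1-2* against Col-0. With libraries rescaled by size factors from the median of ratios of the miRNA entries it was -0.21 and -0.36. On that scale 23 entries were called lower and 19 higher at 27 °C, where the RPMR scale gave 75 and 2, and 35 lower and 21 higher at 21 °C, where the RPMR scale gave 83 and 1. For *dcl1-24/hyl1-2* against *hyl1-2*, the median of 1.46 at 27 °C and 2.09 at 21 °C became 0.32 and 0.71, and the entries called higher and lower numbered 18 and 5 at 27 °C and 40 and 10 at 21 °C, where the RPMR scale gave 66 and 4, and 111 and 3. A further scale, the summed miRNA RPMR, was used with and without miR5026, which took 37.2 to 64.4% of the sum in *dcl1-24/hyl1-2*, 22.4 to 50.0% in *hyl1-2* and 1.37 to 4.26% in Col-0. Each member is therefore given on the RPMR scale, and the ratios between members of the same library, which no scaling can change except through the pseudocount, are given after them.

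miR159a, one of the 2 abundant miR159 guides, was highest in Col-0 and lowest in *hyl1-2*. Its levels in *dcl1-24/hyl1-2* were 409, 1122 and 1291 RPMR at 27 °C and 769.9, 817 and 919 RPMR at 21 °C. In *hyl1-2* they were 242, 205 and 60.1 RPMR at 27 °C and 89.8, 85.1 and 32.7 RPMR at 21 °C. In Col-0 they were 6076, 10954 and 2735 RPMR at 27 °C and 5439, 4090 and 4938 RPMR at 21 °C. No library of any genotype overlapped the range of another genotype at the same temperature, and within each genotype the temperatures overlapped. The means of *hyl1-2* and Col-0 differed 39.0-fold at 27 °C and 69.7-fold at 21 °C.

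miR159b-3p, the other abundant guide, kept more of its level in both mutants. It stood at 1117, 2485 and 3156 RPMR at 27 °C and 2551, 1836 and 2675 RPMR at 21 °C in *dcl1-24/hyl1-2*. In *hyl1-2* it stood at 970.2, 564 and 245 RPMR at 27 °C and 312, 306 and 118 RPMR at 21 °C. In Col-0 it stood at 5187, 8474 and 2548 RPMR at 27 °C and 6941, 3642 and 4212 RPMR at 21 °C. *hyl1-2* was below both other genotypes without overlap at each temperature, whereas *dcl1-24/hyl1-2* and Col-0 overlapped at 27 °C. In *hyl1-2*, miR159b-3p was the fourth most abundant of all entries in every library (rank 4 in each of 6), while miR159a ranked between 7 and 11.

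miR159c, the rarest miR159 guide, was measured at 11.0, 107 and 24.6 RPMR at 27 °C and 24.2, 54.7 and 35.8 RPMR at 21 °C in *dcl1-24/hyl1-2*. It reached 7.69, 17.3 and 1.33 RPMR at 27 °C and 3.03, 6.68 and 0.34 RPMR at 21 °C in *hyl1-2*, which is 1 to 39 reads a library. In Col-0 it reached 82.5, 164.5 and 24.9 RPMR at 27 °C and 54.0, 92.1 and 56.2 RPMR at 21 °C. The *hyl1-2* libraries were below the Col-0 libraries at both temperatures, but overlapped with *dcl1-24/hyl1-2* at 27 °C, and *dcl1-24/hyl1-2* overlapped with Col-0 at both temperatures.

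miR319a/b, which carried most of the miR319 reads in every library, was measured in *dcl1-24/hyl1-2* at 301, 685 and 833 RPMR at 27 °C and at 776, 571 and 807 RPMR at 21 °C. Its levels in *hyl1-2* were 207, 180 and 94.4 RPMR at 27 °C and 123, 128 and 53.1 RPMR at 21 °C. Its levels in Col-0 were 1020, 1755 and 765 RPMR at 27 °C and 1197, 821 and 949.7 RPMR at 21 °C. *dcl1-24/hyl1-2* overlapped with Col-0 at 27 °C, and at 21 °C its highest library was just under the lowest of Col-0.

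miR319c differs from miR319a/b by a single base and behaved differently. Its levels in *dcl1-24/hyl1-2* were 10.1, 43.2 and 39.3 RPMR at 27 °C and 50.5, 32.6 and 33.2 RPMR at 21 °C. In *hyl1-2* they were 6.25, 4.00 and 2.67 RPMR at 27 °C and 3.53, 1.11 and 0 RPMR at 21 °C. The library at 0 allows up to 1.02 RPMR (3 reads, counting error only), and the highest *hyl1-2* library had 26 reads. In Col-0 the levels were 126, 206 and 105 RPMR at 27 °C and 277, 163 and 195 RPMR at 21 °C. The 3 genotypes did not overlap at either temperature, and the order was Col-0, *dcl1-24/hyl1-2*, *hyl1-2*.

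miR159b-5p is the strand opposite miR159b-3p in the *MIR159b* duplex and was rare everywhere, with at most 23 reads. Its levels in *dcl1-24/hyl1-2* were 0.87, 0.45 and 1.64 RPMR at 27 °C and 4.59, 8.97 and 4.48 RPMR at 21 °C. In *hyl1-2* they were 0, 0 and 0.33 RPMR at 27 °C and 0, 1.11 and 0.34 RPMR at 21 °C, where the libraries at 0 allow up to 0.721 to 1.51 RPMR. In Col-0 they were 1.67, 2.45 and 1.02 RPMR at 27 °C and 5.94, 9.71 and 1.89 RPMR at 21 °C. It was the only member whose 27 °C and 21 °C libraries did not overlap in any genotype, which was the case in *dcl1-24/hyl1-2*, where 5.76% of the tested entries were lower at 27 °C in this way.

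**Figure D1:**
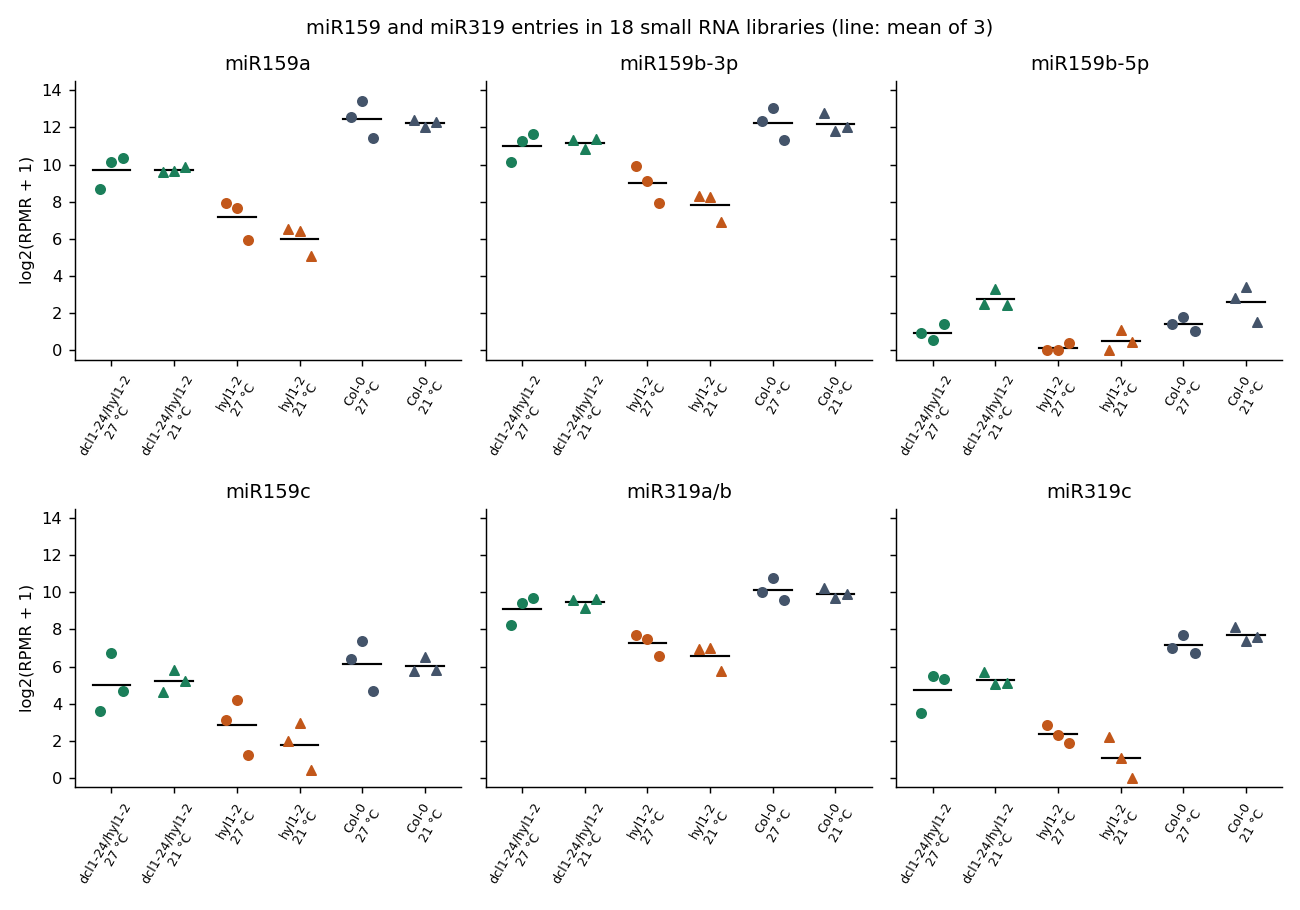
Level of each miR159 and miR319 entry as log2(RPMR + 1), with 1 point per library in replicate order, circles for 27 °C and triangles for 21 °C, and a line at the mean of 3. In the panels of miR159a and miR319c the 3 genotypes occupy separate ranges, while *dcl1-24/hyl1-2* and Col-0 overlap for miR159b-3p, miR159c and miR319a/b at 27 °C.

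To ask how far the loss of HYL1 lowered these miRNAs, *hyl1-2* was compared with Col-0 using limma on log2(RPMR + 1). All 6 members were lower in *hyl1-2* at both temperatures at an adjusted p under 0.05, where 54.0% of the tested entries were lower at 27 °C and 59.7% at 21 °C. For all 6 every *hyl1-2* library was below every Col-0 library, as it was for 54.7% of the entries at 27 °C and 66.2% at 21 °C. The exception to this direction under other scalings was miR319a/b, which stood at 0.06 on the log2 scale at 21 °C after scaling to the summed miRNA RPMR without miR5026. The median log2 fold change of the members was -3.27 at 27 °C and -4.33 at 21 °C. The log2 fold change of miR319c was -4.78 ± 0.74 (SE) at 27 °C (limma adjusted p = 8.2e-08) and -6.61 ± 0.74 at 21 °C (limma adjusted p = 4.4e-13), the lowest fold change of the 139 entries at 21 °C. That of miR159a was -5.29 ± 0.67 at 27 °C (limma adjusted p = 1.4e-10) and -6.22 ± 0.67 at 21 °C (limma adjusted p = 1.7e-13). These 2 were among the 4 lowest fold changes of all tested entries at each temperature. On the log2(RPMR + 1) scale an entry cannot fall by more than its own level. The median level of the tested entries was 2.90 to 4.11 in the Col-0 libraries, so many entries could not reach such ranks.

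The paralogues of miR159a and miR319c had smaller fold changes in the same libraries. For miR159c the difference from miR159a was not tested, and their 95% intervals overlapped at both temperatures (-4.85 to -1.76 and -6.62 to -3.95 at 27 °C). miR159b-3p stood at -3.23 ± 0.64 at 27 °C (limma adjusted p = 1.9e-05) and -4.40 ± 0.64 at 21 °C (adjusted p = 6.6e-09), and miR159c at -3.30 ± 0.78 (limma adjusted p = 0.00027) and -4.26 ± 0.78 (adjusted p = 2.4e-06). The smallest decreases among the guides were those of miR319a/b, -2.86 ± 0.68 at 27 °C (limma adjusted p = 0.00029) and -3.36 ± 0.68 at 21 °C (limma adjusted p = 1.8e-05). The rare strand miR159b-5p stood at -1.27 ± 0.57 at 27 °C, where its limma adjusted p of 0.048 was at the threshold, and at -2.08 ± 0.57 at 21 °C (adjusted p = 0.00092). With the replicate number as a block the p at 27 °C was 0.054, with a pseudocount of 5 RPMR it was 0.22, and it exceeded 0.05 without any single one of 10 libraries, namely each *hyl1-2* library at either temperature, Col-0 replicates 1 and 2 at 27 °C and 3 at 21 °C, and *dcl1-24/hyl1-2* replicate 2 at 27 °C (highest 0.16, without Col-0 replicate 2 at 27 °C). miR159a and miR319c were called lower in *hyl1-2* under all 3 other scalings at both temperatures, and the calls of miR159b-5p and, except by median-of-ratios scaling at 21 °C, miR159c were lost under them. The call of miR319a/b was lost under all 3 at 21 °C and, like that of miR159b-3p, under the sum without miR5026 at 27 °C.

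The question whether *dcl1-24* restored these miRNAs was addressed by comparing *dcl1-24/hyl1-2* with *hyl1-2*. At 27 °C 5 of 6 members were higher in *dcl1-24/hyl1-2*, beside 47.5% of the tested entries. All 6 were higher at 21 °C, beside 79.9% of entries. The libraries did not overlap for 5 members at 27 °C (51.8% of entries), all but miR159c, and for 6 at 21 °C (70.5% of entries). The direction was that of most entries, and by the sum of miRNA RPMR it turned for miR319a/b at both temperatures (-0.24 at 27 °C and -0.25 at 21 °C) and for miR159b-3p at 27 °C (-0.10). The log2 fold change of miR319c was 2.41 ± 0.74 (SE) at 27 °C (limma adjusted p = 0.0054) and 4.20 ± 0.74 at 21 °C (adjusted p = 2.4e-06), rank 3 from the highest of 139. For miR159a it was 2.54 ± 0.67 at 27 °C (limma adjusted p = 0.0018) and 3.70 ± 0.67 at 21 °C (adjusted p = 3.5e-06).

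The other guides were 1.86 to 2.16 higher on the log2 scale at 27 °C (limma adjusted p from 0.0072 to 0.018) and 2.90 to 3.43 higher at 21 °C (adjusted p from 7.1e-06 to 0.00017). The log2 fold change of miR159b-5p, 0.81 ± 0.57 at 27 °C, did not pass (limma adjusted p = 0.20), and it was 2.25 ± 0.57 at 21 °C (adjusted p = 0.00039). The calls at 27 °C rested on few libraries. Without *hyl1-2* replicate 3 at 27 °C, the lowest of its group for all 5 guide entries, or without *dcl1-24/hyl1-2* replicate 2 at 27 °C, 2 members were past the threshold, and miR159a was called in both cases. miR319a/b was also lost without *dcl1-24/hyl1-2* replicate 3 at 27 °C (limma adjusted p = 0.090). After any of the 3 other scalings 0 of 6 members were higher at 27 °C by limma at an adjusted p under 0.05 (at most 1 at an unadjusted p under 0.05). Of the 139 entries, 4 were higher at 27 °C by the sum, 18 by the sum without miR5026 and 18 by median of ratios. At 21 °C between 1 and 3 members were higher, miR319c under each, beside 21, 23 and 40 entries in the same order of scalings.

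Compared with Col-0, *dcl1-24/hyl1-2* had lower miR159a and miR319c and, on the RPMR scale, no detected difference in the other 4 members. These 2 of 6 members were lower at both temperatures, where 10.1% of the tested entries were lower at 27 °C and 7.91% at 21 °C, and the median of all tested entries was -0.52 and -0.07. None was higher, where 16.5% and 13.7% of entries were. Every *dcl1-24/hyl1-2* library was below every Col-0 library for 2 members at 27 °C (12.9% of entries) and 4 at 21 °C (11.5% of entries), miR159b-3p and miR319a/b being the others at 21 °C. The log2 fold change of miR159a was -2.75 ± 0.67 (SE) at 27 °C (limma adjusted p = 0.00079) and -2.52 ± 0.67 at 21 °C (adjusted p = 0.0028). That of miR319c was -2.38 ± 0.74 at 27 °C (limma adjusted p = 0.0099) and -2.41 ± 0.74 at 21 °C (adjusted p = 0.010). By group means, *dcl1-24/hyl1-2* had 940.9 RPMR of miR159a at 27 °C and 835 RPMR at 21 °C, against 6588 and 4822 RPMR in Col-0, and 30.9 and 38.7 RPMR of miR319c, against 146 and 212 RPMR in Col-0.

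For the other guides the intervals were wide. The log2 fold change of miR159b-3p was -1.23 at 27 °C (95% interval -2.49 to 0.04, limma adjusted p = 0.17) and -1.03 at 21 °C (-2.30 to 0.24, adjusted p = 0.30). For miR319a/b it was -0.996 (-2.34 to 0.35, limma adjusted p = 0.31) and -0.46 (-1.81 to 0.89, adjusted p = 0.85). miR159c and miR159b-5p lay between -1.14 and 0.17 with adjusted p of 0.31 or more. The call of miR319c at 27 °C was lost without Col-0 replicate 2 (limma adjusted p = 0.054) or without *dcl1-24/hyl1-2* replicate 1 (adjusted p = 0.098) of that temperature, and after scaling to the sum without miR5026 (-1.43, adjusted p = 0.11). miR159b-3p passed the threshold under both the summed and the median-of-ratios scaling, at -1.50 and -0.74 at 27 °C and -1.33 and -0.85 at 21 °C. miR319a/b passed at 27 °C under the summed scaling (-1.27, limma adjusted p = 0.0069).

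**Figure D2:**
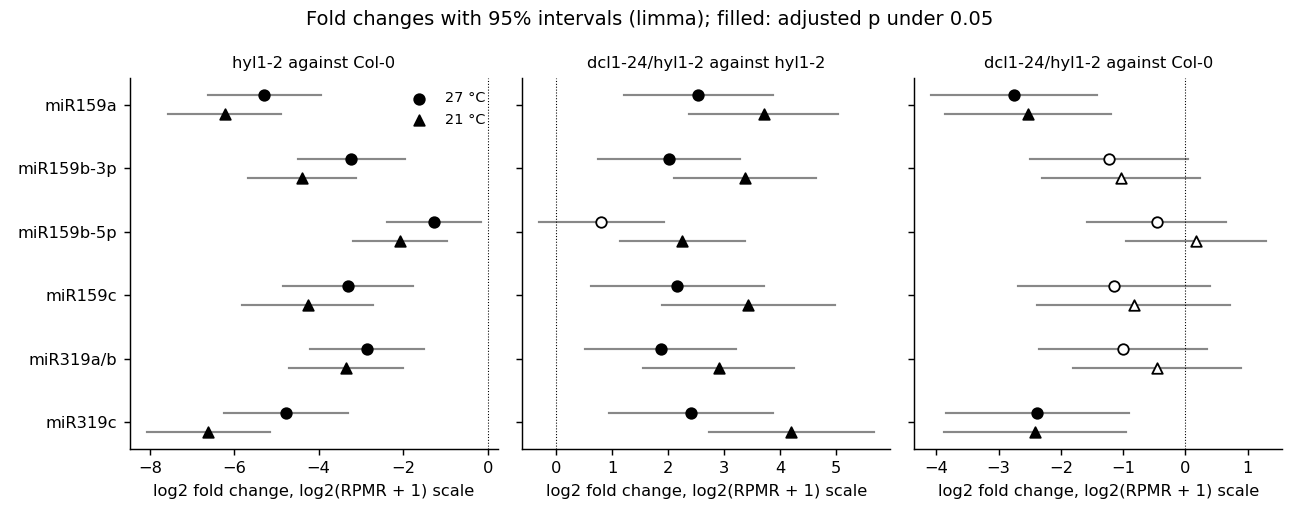
Log2 fold change of each member in the 3 genotype comparisons, on the log2(RPMR + 1) scale, with 95% intervals from limma, circles for 27 °C, triangles for 21 °C and filled symbols for an adjusted p under 0.05. In the right panel only miR159a and miR319c are filled, at -2.75 and -2.38 at 27 °C. On other scales miR319a/b (left and middle panels) and miR159b-3p (middle panel) change sign, as do miR319a/b and miR159b-5p in the right panel, where neither is filled and miR319a/b was called lower at 27 °C on the summed scale.

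The paralogues were then compared with each other inside each library, where the rRNA scale cancels. miR159a made up 26.6 to 30.2% of the summed miR159 guides at 27 °C and 23.0 to 30.2% at 21 °C in *dcl1-24/hyl1-2*, 19.6 to 26.1% and 21.4 to 22.2% in *hyl1-2*, and 51.5 to 55.9% and 43.7 to 53.6% in Col-0. Every library of either mutant was thus below every library of Col-0, and at each temperature every *dcl1-24/hyl1-2* library was above every *hyl1-2* library. The log2 ratio of miR159a to miR159b-3p averaged -1.39 ± 0.23 in *dcl1-24/hyl1-2*, -1.82 ± 0.20 in *hyl1-2* and 0.12 ± 0.25 in Col-0 (SD, n = 6 each). The ratios were tested by exact two-sided permutation of genotypes within temperature, for which 0.005 is the smallest p, or of temperatures within genotype, with p adjusted over 12 such tests.

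The miR159a to miR159b-3p ratio was lower by 1.94 in *hyl1-2* than in Col-0 and by 1.51 in *dcl1-24/hyl1-2* than in Col-0 (exact permutation p = 0.005 and adjusted p = 0.0086 for each). Between *dcl1-24/hyl1-2* and *hyl1-2* it differed by 0.43 on the log2 scale (exact permutation p = 0.005, adjusted p = 0.0086), a 1.35-fold higher ratio in *dcl1-24/hyl1-2*. Temperature moved it by 0.13 (exact permutation p = 0.23, adjusted p = 0.25). miR159c stayed a small share of the miR159 guides in all genotypes, 0.549 to 2.88% in *dcl1-24/hyl1-2*, 0.226 to 2.20% in *hyl1-2* and 0.434 to 1.18% in Col-0.

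miR319c took 3.26 to 5.94% of miR319 at 27 °C and 3.95 to 6.11% at 21 °C in *dcl1-24/hyl1-2*. In *hyl1-2* it took 2.17 to 2.93% and 0 to 2.80%, where the 0 reads beside 156 of miR319a/b allow a share of up to 1.89%. In Col-0 it took 10.5 to 12.1% at 27 °C and 16.6 to 18.8% at 21 °C. The genotypes did not overlap, and within Col-0 the temperatures did not overlap either. The log2 ratio of miR319a/b to miR319c was higher by 2.59 in *hyl1-2* than in Col-0 and by 1.67 in *dcl1-24/hyl1-2* than in Col-0 (exact permutation p = 0.005 and adjusted p = 0.0086 for each).

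Between *dcl1-24/hyl1-2* and *hyl1-2* this ratio differed by -0.92 (exact permutation p = 0.01, adjusted p = 0.015). With a pseudocount of 5 RPMR, above most miR319c levels of *hyl1-2*, the difference was 0.07 (adjusted p = 0.72), and as a share without any pseudocount the difference in miR319a/b was -2.94 percentage points (exact permutation p = 0.005, adjusted p = 0.01). Over the 3 genotypes temperature moved the ratio by 0.11 (exact permutation p = 0.59). The Col-0 libraries had linear ratios of 8.12, 8.50 and 7.30 at 27 °C and 4.32, 5.04 and 4.87 at 21 °C, a separation of the temperatures that was not seen in *dcl1-24/hyl1-2* (15.8 to 29.7 at 27 °C and 15.4 to 24.3 at 21 °C). In *hyl1-2* they were 33.1, 45 and 35.4 at 27 °C, on 26, 9 and 8 reads of miR319c, and 34.7 and 115 at 21 °C, on 7 and 2 reads, besides the library with 0 reads. This contrast was noticed in the values, and the difference between genotypes was not tested.

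**Figure D3:**
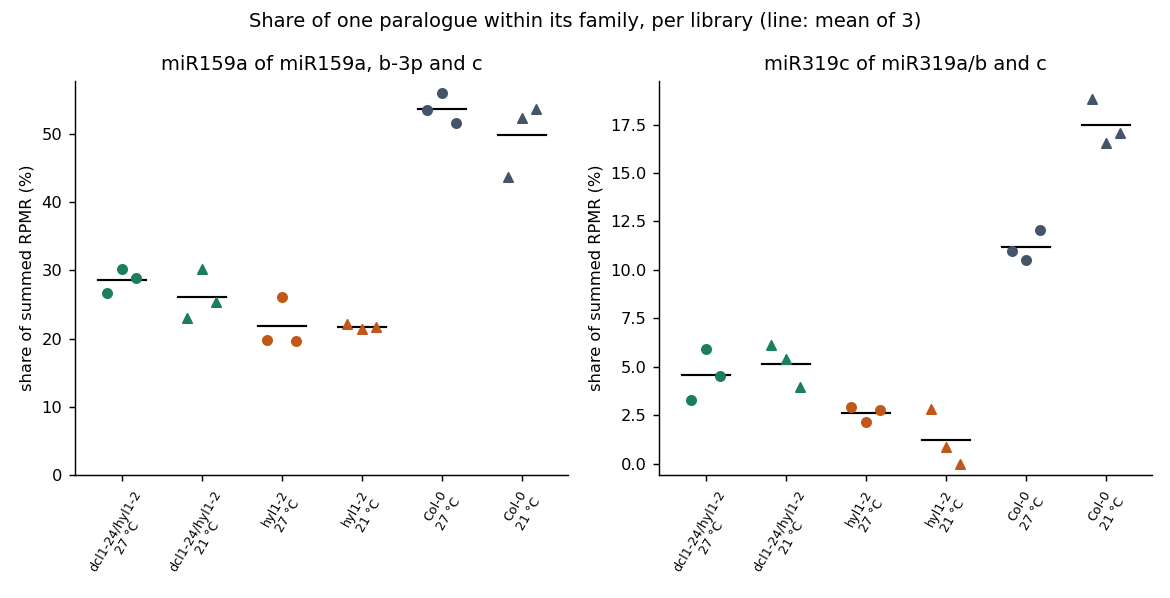
Share of miR159a in the summed RPMR of the miR159 guides (left) and of miR319c in the summed RPMR of miR319 (right), in percent, with 1 point per library and a line at the mean of 3. Col-0 libraries lie at 43.7 to 55.9% on the left and 10.5 to 18.8% on the right, above every library of *dcl1-24/hyl1-2* and *hyl1-2*.

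Both families together accounted for 4.17 to 11.4% of all miRNA RPMR in *dcl1-24/hyl1-2*, 5.14 to 9.37% in *hyl1-2* and 24.8 to 30.5% in Col-0. The share of miR5026 given above stands beside these values, and its part in them was not tested. The sum of the miR159 guides was 4.05 to 5.12 times that of miR319 in *dcl1-24/hyl1-2*, 2.84 to 5.72 times in *hyl1-2* and 6.11 to 9.99 times in Col-0, so that the Col-0 libraries were above those of both mutants.

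Temperature left the guides without a detected change. In *dcl1-24/hyl1-2* the log2 fold changes of the 5 guide entries at 27 °C against 21 °C ranged from -0.52 to 0.01, in *hyl1-2* from 0.69 to 1.27 and in Col-0 from -0.56 to 0.24, and by limma 0 of 6 members passed an adjusted p of 0.05 in any genotype, where 1.44% of entries were lower in *dcl1-24/hyl1-2*, 0.0% in *hyl1-2* and 0.719% in Col-0. These directions depended on the scale. In *hyl1-2* miR319a/b turned under all 3 other scalings (-0.34 summed, -0.09 without miR5026, -0.29 by median of ratios), and miR159a, at 1.18 on the RPMR scale, stood at 0.15, 0.41 and 0.21. In Col-0 miR159a, miR159b-3p, miR159c and miR319a/b turned by median of ratios (-0.36 to -0.14), and in *dcl1-24/hyl1-2* miR159b-3p (0.15) and miR159c (0.09) turned without miR5026 and miR159a (-0.06) by median of ratios. At an unadjusted p under 0.05 there was 1 member in *dcl1-24/hyl1-2*, 0 in *hyl1-2* and 1 in Col-0, each time miR159b-5p, beside 12, 16 and 14 of the 139 entries. No member differed between genotypes in its response to temperature by limma at an adjusted p under 0.05, and 0 of the 139 entries did. At an unadjusted p under 0.05 there were 0 members. Of all entries there were 4 for *hyl1-2* with Col-0, 4 for *dcl1-24/hyl1-2* with *hyl1-2* and 1 for *dcl1-24/hyl1-2* with Col-0.

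The rare strand miR159b-5p gave the lowest warm fold changes among the members, -1.81 ± 0.57 (SE) in *dcl1-24/hyl1-2* (limma adjusted p = 0.082), -0.36 ± 0.57 in *hyl1-2* (adjusted p = 0.82) and -1.18 ± 0.57 in Col-0 (adjusted p = 0.46). With array weights the first of these passed, at -1.97 (adjusted p = 0.024). The levels of both strands of the *MIR159b* duplex, printed above, were also compared as a ratio. The log2 ratio of miR159b-3p to miR159b-5p averaged 10.1 ± 0.77 at 27 °C and 8.43 ± 0.79 at 21 °C in *dcl1-24/hyl1-2*, 8.86 ± 1.22 and 7.31 ± 0.92 in *hyl1-2*, and 10.8 ± 0.49 and 9.63 ± 1.09 in Col-0 (SD, n = 3 each).

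The ratio was thus higher at 27 °C in each genotype, by 1.46 over the 3 (exact permutation p = 0.00375, adjusted p = 0.0086), and without a pseudocount the share of miR159b-3p was 0.166 percentage points higher at 27 °C (exact permutation p = 0.007, adjusted p = 0.012). It rests on 7, 1 and 13 miR159b-5p reads summed over the 27 °C libraries of *dcl1-24/hyl1-2*, *hyl1-2* and Col-0, and on 35, 3 and 39 at 21 °C. In *hyl1-2*, with 0 to 2 miR159b-5p reads a library, the ratio largely followed the level of miR159b-3p, which depends on the scale. The rise in *hyl1-2* therefore says little about the strands, and it enters the 1.46. At 27 °C miR159b-5p was also near the 1 RPMR added in *dcl1-24/hyl1-2* (0.45 to 1.64 RPMR) and Col-0 (1.02 to 2.45 RPMR). The log2 ratios of these genotypes thus depend in part on the scale as well.

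Between genotypes the ratio depended on how 0 reads were handled. It was 2.14 lower in *hyl1-2* than in Col-0 (exact permutation p = 0.005, adjusted p = 0.0086), but with a pseudocount of 0.5 RPMR the difference of -1.58 had an adjusted p of 0.0525, and as a share without a pseudocount it was -0.05 percentage points (adjusted p = 0.55). *dcl1-24/hyl1-2* differed from *hyl1-2* by 1.16 (exact permutation p = 0.05, adjusted p = 0.067) and from Col-0 by -0.98 (exact permutation p = 0.065, adjusted p = 0.078). With same-numbered libraries paired, the last had an adjusted p of 0.042 by exact permutation. The deviations of same-numbered libraries correlated at -0.05 to 0.18 at 27 °C and -0.14 to 0.60 at 21 °C in that contrast, so this pairing was not borne out.

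**Figure D4:**
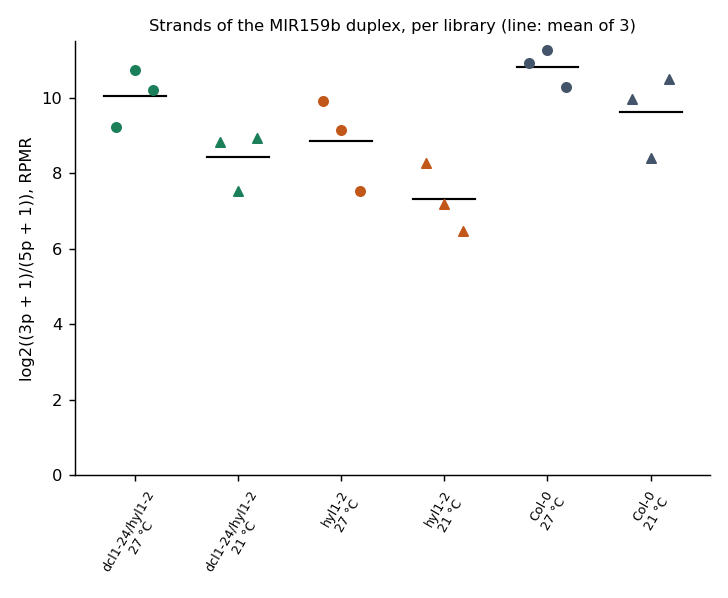
Log2 ratio of miR159b-3p to miR159b-5p, each with 1 RPMR added, with 1 point per library and a line at the mean of 3. The mean is higher at 27 °C than at 21 °C in each genotype, 10.1 against 8.43 in *dcl1-24/hyl1-2*, 8.86 against 7.31 in *hyl1-2* and 10.8 against 9.63 in Col-0, with overlap of single libraries in *hyl1-2* and Col-0. In *hyl1-2*, with 0 to 2 miR159b-5p reads a library, the ratio largely follows the level of miR159b-3p. In the other genotypes miR159b-5p is near the 1 RPMR added at 27 °C, so their ratios depend in part on the scale.

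Over the 18 libraries, which share the rRNA scale and fall into 3 genotypes, the entry most like miR159a on the log2(RPMR + 1) scale was miR319c (Pearson r = 0.98), followed by miR159b-3p (0.97) and miR173-5p (0.97). The entries most like miR319c were in turn miR159a (0.98), miR159b-3p (0.97) and miR319a/b (0.96). For miR159b-3p they were miR319a/b (0.99), the shared entry of the miR156a to miR156f guides (0.98) and miR858a (0.98), and for miR319a/b they were miR858a (0.99), miR159b-3p (0.99) and miR781a/b (0.98). After subtracting the median of each library, the order changed. The entry most like miR159a was then miR159b-3p (0.96), with miR319c next (0.96), and for miR159b-3p the entry miR319a/b (0.94) came after miR159a and miR319c. Before subtracting, the less abundant members had weaker partners. For miR159c they were miR824-5p (0.94), miR161.2 (0.93) and miR319a/b (0.93). For miR159b-5p they were miR168b-3p (0.82), miR3932b-5p (0.82) and miR157a-c-5p (0.78). After subtracting, these correlations were 0.81, 0.80 and 0.82 for miR159c and 0.60, 0.55 and 0.44 for miR159b-5p. That of miR319a/b with miR781a/b was then 0.84.

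Other miRNAs of MYB and leaf growth genes give a setting for these values. miR858a and miR858b, which also target MYB genes, were the 2 tested entries of the MYB list. miR858a, the abundant one, had a median of 101 RPMR at 27 °C and 105 RPMR at 21 °C in *dcl1-24/hyl1-2*, 21.3 and 12.1 RPMR in *hyl1-2* and 128 RPMR at either temperature in Col-0. It passed the test in *hyl1-2* against Col-0 (log2 fold changes of -2.91 at 27 °C and -3.48 at 21 °C) and in *dcl1-24/hyl1-2* against *hyl1-2* (2.13 and 3.16). miR858b, with a mean of 1.02 RPMR over all libraries, passed in 1 comparison, *dcl1-24/hyl1-2* against *hyl1-2* at 27 °C.

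The leaf growth list held 8 tested entries of miR396, which targets growth-regulating factors, and miR164, which targets NAC genes such as *CUC2*. In *hyl1-2* against Col-0, 4 of 8 were lower at 27 °C and 7 of 8 at 21 °C, with medians of -1.60 and -2.50, beside 54.0% and 59.7% of all tested entries and medians of -1.63 and -1.95. In *dcl1-24/hyl1-2* against *hyl1-2*, 2 of 8 were higher at 27 °C and 7 of 8 at 21 °C, with medians of 1.11 and 2.41, beside 47.5% and 79.9% of all tested entries and medians of 1.46 and 2.09. In *dcl1-24/hyl1-2* against Col-0, limma called 0 of the 8 and 0 of the MYB entries at either temperature, and 0 had an unadjusted p under 0.05. Of all 139 tested entries, 23 were called higher and 14 lower at 27 °C, and 19 higher and 11 lower at 21 °C. An unadjusted p under 0.05 was found for 46 of them at 27 °C and 44 at 21 °C. Within the leaf growth list, miR396b-5p and miR396a-5p were the most abundant entries. They had log2 fold changes of -0.31 and -0.92 at 27 °C and of -0.15 and -0.48 at 21 °C in *dcl1-24/hyl1-2* against Col-0. For miR159a that comparison gave -2.75 at 27 °C and -2.52 at 21 °C.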

How the data were processed

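Small RNA of whole seedlings was gel-purified by the authors, and the libraries were sequenced by a company. As the paper's methods describe, adapters were removed with cutadapt 3.0, reads of 18 to 42 nt were aligned to Araport11 with ShortStack without mismatches, and DESeq2 1.35.0 served for their own comparisons. The deposited values are a form of RPM in which the authors scaled miRNA reads to the 45S rRNA reads of the library (RPMR), so rRNA fragments enter every value. No column was left out. Genotype and temperature came from the sample titles.

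Fold changes were fitted with limma 3.58.1 (R 4.3.3) to log2(RPMR + 1), with 6 group means and a trend of the variance on level, for the 139 entries averaging 1 RPMR or more, with two-sided p adjusted by Benjamini and Hochberg over all 139. Fold changes of low entries are understated on this scale. Ratios between members were tested by exact permutation with scipy 1.17.1 (Python 3.11.15, numpy 2.4.6, pandas 2.3.3, matplotlib 3.10.9 for plots), and hairpins were folded with RNAfold 2.7.2. Same-numbered libraries deviated together, with every correlation over 0.1, in the contrast of temperatures within *dcl1-24/hyl1-2* (0.14 to 0.27) and in that of *hyl1-2* with Col-0 in the warm (0.16 to 0.48). This rests on the values alone, as no source says what a number shares. Alternatives tried were a pseudocount of 0.5 or 5, a minimum mean of 5 RPMR or none, 3 other scalings, a replicate block, array weights, only the compared groups, and each library left out. The implied reads describe depth and were not tested as counts. The members, lists and tests were chosen with earlier results of these data known. Named beyond the members are the 3 entries most like each member and the 2 most abundant of each list.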

Additional observations from a re-analysis of the deposited data

How the results depend on the processing

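Counts of members past the threshold were within 1.5 times under both pseudocounts, both filters, the replicate block and a fit of only the compared groups, and with the block no call changed other than that of miR159b-5p in *hyl1-2* against Col-0 at 27 °C (adjusted p = 0.054) and the ratio named below. Scaling to the summed miRNA RPMR gave 3 of 6 members for *hyl1-2* against Col-0 at 21 °C, beside 28 of 139 entries lower. For *dcl1-24/hyl1-2* against *hyl1-2* it gave 1 at 21 °C and 0 at 27 °C, beside 21 and 4 entries higher. For *dcl1-24/hyl1-2* against Col-0 at 27 °C it gave 4, beside 31 entries lower. Leaving miR5026 out of the sum gave 3 at 21 °C and 2 at 27 °C for *hyl1-2* against Col-0, beside 23 and 15 entries lower. It gave 2 and 0 for *dcl1-24/hyl1-2* against *hyl1-2*, beside 23 and 18 higher, and 1 for *dcl1-24/hyl1-2* against Col-0 at 27 °C, beside 7 lower. Median-of-ratios scaling gave 3 at 21 °C and 0 at 27 °C for *dcl1-24/hyl1-2* against *hyl1-2*, beside 40 and 18 higher. Array weights gave 1 for 27 °C against 21 °C in *dcl1-24/hyl1-2*. With each library left out, the counts were 2 to 5 for *dcl1-24/hyl1-2* against *hyl1-2* at 27 °C and 1 to 2 for *dcl1-24/hyl1-2* against Col-0 at 27 °C. The cause was not tested.

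Fold changes between genotypes that turned were those of miR319a/b in *hyl1-2* against Col-0 at 21 °C (0.0605 without miR5026), in *dcl1-24/hyl1-2* against *hyl1-2* (-0.25 at 21 °C and -0.24 at 27 °C, summed) and in *dcl1-24/hyl1-2* against Col-0 at 21 °C (0.16 without miR5026). miR159b-3p turned in *dcl1-24/hyl1-2* against *hyl1-2* at 27 °C (-0.10, summed), and miR159b-5p in *dcl1-24/hyl1-2* against Col-0 (-0.024 at 21 °C, summed, 0.0714 at 27 °C without miR5026, and -0.36 to 0.59 at 21 °C with a library left out). Those between temperatures that turned under a scaling, none of them called, are given with that comparison.

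The ratio of miR159b-3p to miR159b-5p in *hyl1-2* against Col-0 was -1.58 with a pseudocount of 0.5 (adjusted p = 0.0525) and -0.0482 percentage points as a share (adjusted p = 0.55), an alternative chosen after seeing the data. In *dcl1-24/hyl1-2* against *hyl1-2* it was 2.07 with a pseudocount of 5 (adjusted p = 0.02), -0.0323 percentage points as a share, and 0.84 to 1.53 with a library left out. In *dcl1-24/hyl1-2* against Col-0 it was -0.98 with the replicate block (adjusted p = 0.042) and -1.34 to -0.64 with a library left out. Same-numbered libraries did not all deviate together in that contrast. The ratio of miR319a/b to miR319c in *dcl1-24/hyl1-2* against *hyl1-2* was 0.0675 with a pseudocount of 5. For 27 °C against 21 °C that ratio was -0.0015 with a pseudocount of 0.5 and -0.12 to 0.36 with a library left out, and the ratio of miR159a to miR159b-3p was -0.0348 to 0.297. A test on read counts was not run. Every value was a whole multiple of the lowest step in its library. Because few low values per library set that step, the implied reads were used for description only. In *hyl1-2*, 0 to 26 reads of miR319c and 0 to 2 of miR159b-5p limit their ratios.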
